A study of Mus musculus with 34 samples.

Results

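The genes described here are 40 named members of glycolysis and of the response to low oxygen. They comprise enzymes of glucose breakdown, carriers of glucose and lactate, and targets and regulators of hypoxia-inducible factor (HIF). They were named by function, at a time when earlier results of these data were known. In cultures of MOSJ-Dkk1 cells, 37 of the 40 were measured among 16562 genes tested. The other 3, Slc2a3, Eno2 and Adm, had no row in the table.

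MOSJ-Dkk1 is a line of mouse osteochondral sarcoma cells, labelled with a red fluorescent protein. A lentiviral vector gives it constant production of human Dkk-1, a secreted inhibitor of Wnt signalling, from the cytomegalovirus promoter, and all 6 groups carry this transgene. The study asked what a block of Dkk-1 does to cells stressed by division and to cells stressed by starvation, and set DkkMo against scrMo in each state. Log-phase cultures were grown for 6 days with regular changes of medium. Cultures under nutritional stress stood for 48 h at confluence, with the medium left unchanged for 4 days. In each condition cells received 5 µM DkkMo, a morpholino directed against the human Dkk-1 message, 5 µM scrMo, its mismatched control, or no morpholino (NT, which the labels also call vehicle). Each group had 3 libraries of bulk RNA, and the sources used here do not say whether these came from separate cultures, so that the p values measure the spread between these libraries, which may be technical. The titles of the stress NT libraries give 1 number to 2 of them.

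Glycolysis splits glucose into pyruvate and yields ATP without oxygen. Pyruvate is then either burned in mitochondria or reduced to lactate, which leaves the cell through monocarboxylate carriers. HIF is a transcription factor whose alpha subunit is hydroxylated and destroyed when oxygen is plentiful. When oxygen is scarce it is stable, and it binds a short core motif near its target genes, among them most glycolytic enzymes, the growth factor gene Vegfa and the mitophagy gene Bnip3. Sarcomas, like many tumours, are known for high glucose use.

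Between 25.9 and 44.8 M reads fell on the listed genes in each library, and each of the 37 genes had at least 13 reads in every library. The table holds log2 values after a variance-stabilising transformation, from which normalised read counts were recovered. The transformation compresses differences of genes with few reads, such as Slc16a3, Aldoc and Ankrd37, so that their log2 differences understate the change. The 8 osteochondral marker genes with a row summed to between 240071 and 271683 normalised counts per library in log NT, 184095 and 213009 in log DkkMo, 117426 and 156349 in log scrMo and 66029 and 88049 under stress, whereas Sp7, Ibsp and Acan had no row. The 8 did not move together. With stress in NT, Col1a1 (-3.20 on the log2 scale), Col1a2 (-3.74) and Spp1 (-1.60) fell, while Runx2 (1.19) and Sox9 (0.72) rose. Alpl, Bglap and Col2a1 changed by between 0.06 and 0.21. In log scrMo against log NT, Col1a1 (-0.95), Col1a2 (-1.06) and Spp1 (-0.87) were lower, but Runx2 (0.02) and Sox9 (0.16) were not. Leukocyte markers (2 of 5 with a row, Ptprc and Cd68) summed to between 408 and 422 in log NT, 679 and 762 in log DkkMo, 851 and 1079 in log scrMo and 1306 and 1565 under stress. Of the pair, Cd68 rose with stress in NT (1.37 on the log2 scale) and was higher in log scrMo than in log NT (0.89). Ptprc did not follow it: its values were -0.22 and -0.11 in the same comparisons (adjusted p = 0.00269 and 0.169, limma). The endothelial marker Pecam1 reached between 269 and 426, and the epithelial marker Krt8 between 1.11 and 22.8. The targeted message is human and has no row, and mouse Dkk1 has none either, so that the knockdown could not be checked here. Ribosomal RNA of mitochondria took between 0.0706% and 0.0819% of reads in log NT, 0.125% and 0.134% in log DkkMo and 0.268% and 0.39% in log scrMo. Under stress it took between 0.0698% and 0.079% in NT, 0.147% and 0.173% in DkkMo and 1.65% and 1.95% in scrMo. These values move with the groups compared below, and their part in the results was not tested.

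Some log-phase libraries stood apart within their group. Replicate 1 of log NT was the highest of its 3 libraries for 30 of the 37 genes, while it was the highest for 36.1% of all genes tested. Replicate 1 of log scrMo was likewise the highest for 30 genes (41.2% of all genes), and replicate 2 of log scrMo was the lowest for 31 genes (27.4% of all genes). Relative to the mean of log NT, the median of the 37 genes was 0.15, -0.06 and -0.11 (log2) in the 3 log NT libraries. It was 0.60, -0.16 and 0.25 in log scrMo and 0.59, 0.46 and 0.54 in log DkkMo. The stress libraries lay close together, between -0.17 and 0.03. Results that rest on these log-phase libraries are given with and without them.

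**Figure D1:**
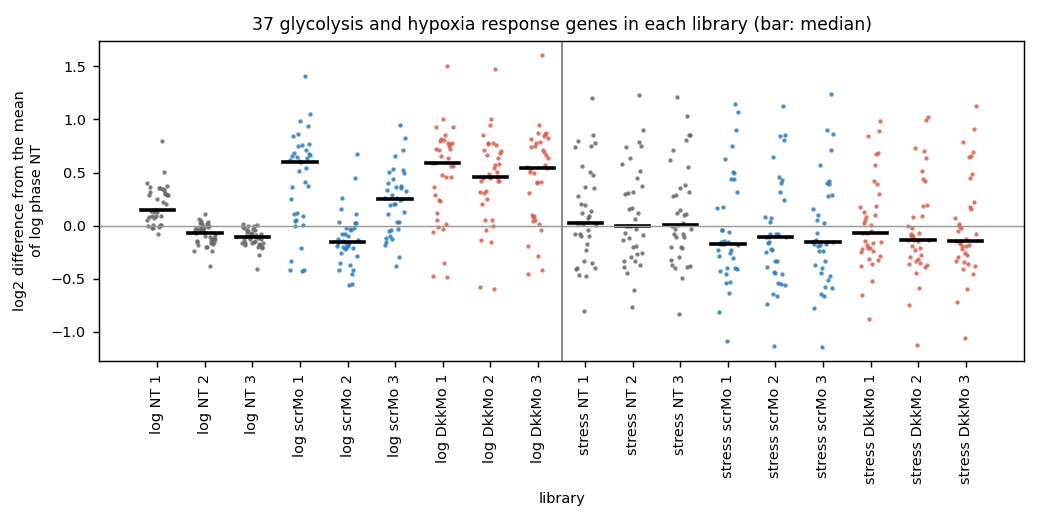
Difference of each of the 37 genes from its mean in log NT (vertical axis, log2) in each of the 18 libraries (horizontal axis), with points for genes and bars for the median of the genes. The 3 log scrMo libraries have medians of 0.60, -0.16 and 0.25, whereas the 3 log DkkMo libraries lie between 0.46 and 0.59 and the 9 stress libraries between -0.17 and 0.03.

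The DNA before the transcript starts of these genes was read, since many of them are textbook targets of HIF. RefSeq promoter windows on GRCm38.p6, from 250 bases before to 50 bases after the start, matched 36 of the 37 genes by symbol, with Ndrg1 not matched. The core hypoxia response motif, ACGTG or GCGTG on either strand, was found in a window of 33 of the 36 genes (91.7%). It was found in 65.5% of the 10521 tested genes with a window and in 46.7% of all 27025 genes of the table. The palindrome CACGTG counts on both strands. Genes can have several windows, and per window the share was 79.2% for these genes and 43.8% for all. A match is only a run of letters and does not show a binding site. The 250 bases before the start are shown for 5 genes with large changes between groups and for Vegfa, whose changes ran against most of the others. They were chosen after their values were seen. Core motifs that lie whole in the stretch are in capitals.
Bnip3, chr7:138909507-138909756, minus strand: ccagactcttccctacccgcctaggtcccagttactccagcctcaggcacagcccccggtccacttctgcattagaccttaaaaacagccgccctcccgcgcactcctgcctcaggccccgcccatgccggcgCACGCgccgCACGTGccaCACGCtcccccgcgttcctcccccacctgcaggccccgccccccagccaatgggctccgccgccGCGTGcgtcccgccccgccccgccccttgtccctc
Ldha, chr7:46845554-46845803, plus strand: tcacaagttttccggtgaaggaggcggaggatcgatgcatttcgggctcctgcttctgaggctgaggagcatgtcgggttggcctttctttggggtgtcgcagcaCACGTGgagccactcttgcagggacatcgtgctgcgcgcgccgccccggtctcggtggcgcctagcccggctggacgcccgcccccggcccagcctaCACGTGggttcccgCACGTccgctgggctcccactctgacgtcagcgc
Pdk1, chr2:71872974-71873223, plus strand: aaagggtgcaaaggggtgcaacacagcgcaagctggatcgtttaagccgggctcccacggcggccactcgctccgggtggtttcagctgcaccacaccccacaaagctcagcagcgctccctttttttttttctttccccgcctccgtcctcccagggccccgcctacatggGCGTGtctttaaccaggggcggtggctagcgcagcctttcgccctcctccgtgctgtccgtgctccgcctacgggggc
Egln1, chr8:124949255-124949504, minus strand: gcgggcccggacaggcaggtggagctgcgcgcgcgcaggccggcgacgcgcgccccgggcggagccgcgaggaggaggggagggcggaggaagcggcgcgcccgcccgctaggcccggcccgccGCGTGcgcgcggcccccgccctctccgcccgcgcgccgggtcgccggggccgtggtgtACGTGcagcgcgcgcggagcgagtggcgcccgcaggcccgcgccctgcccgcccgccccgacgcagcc
Pfkl, chr10:78009808-78010057, minus strand: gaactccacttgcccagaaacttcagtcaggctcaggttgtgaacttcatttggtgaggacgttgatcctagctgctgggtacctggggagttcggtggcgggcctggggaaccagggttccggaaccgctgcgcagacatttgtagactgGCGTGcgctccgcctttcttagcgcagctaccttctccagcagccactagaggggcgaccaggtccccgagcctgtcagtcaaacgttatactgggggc
Vegfa, chr17:46032378-46032627, minus strand: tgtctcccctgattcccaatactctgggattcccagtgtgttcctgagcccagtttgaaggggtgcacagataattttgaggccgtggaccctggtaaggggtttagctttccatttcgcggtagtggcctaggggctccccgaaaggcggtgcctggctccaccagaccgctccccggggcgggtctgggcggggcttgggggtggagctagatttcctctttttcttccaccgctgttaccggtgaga

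The Bnip3 stretch holds 5 such matches, of which 2 overlap in a CACGTG palindrome beginning 108 bases before the start. The Ldha stretch holds 5, including a pair of palindromes that begin 145 and 48 bases before the start. The Egln1 stretch holds 2 and the Pfkl stretch 1. In Pdk1, 1 match lies whole in the stretch, 78 bases before the start, and another spans the start itself. No match was found in this Vegfa stretch, while a second Vegfa window, within the gene, holds 2. Of the 16 genes with a window that were higher in log DkkMo than in log NT (below), 14 held a match, as did 19 of the other 20, so that the motif did not separate the genes that moved from those that did not.

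**Figure D2:**
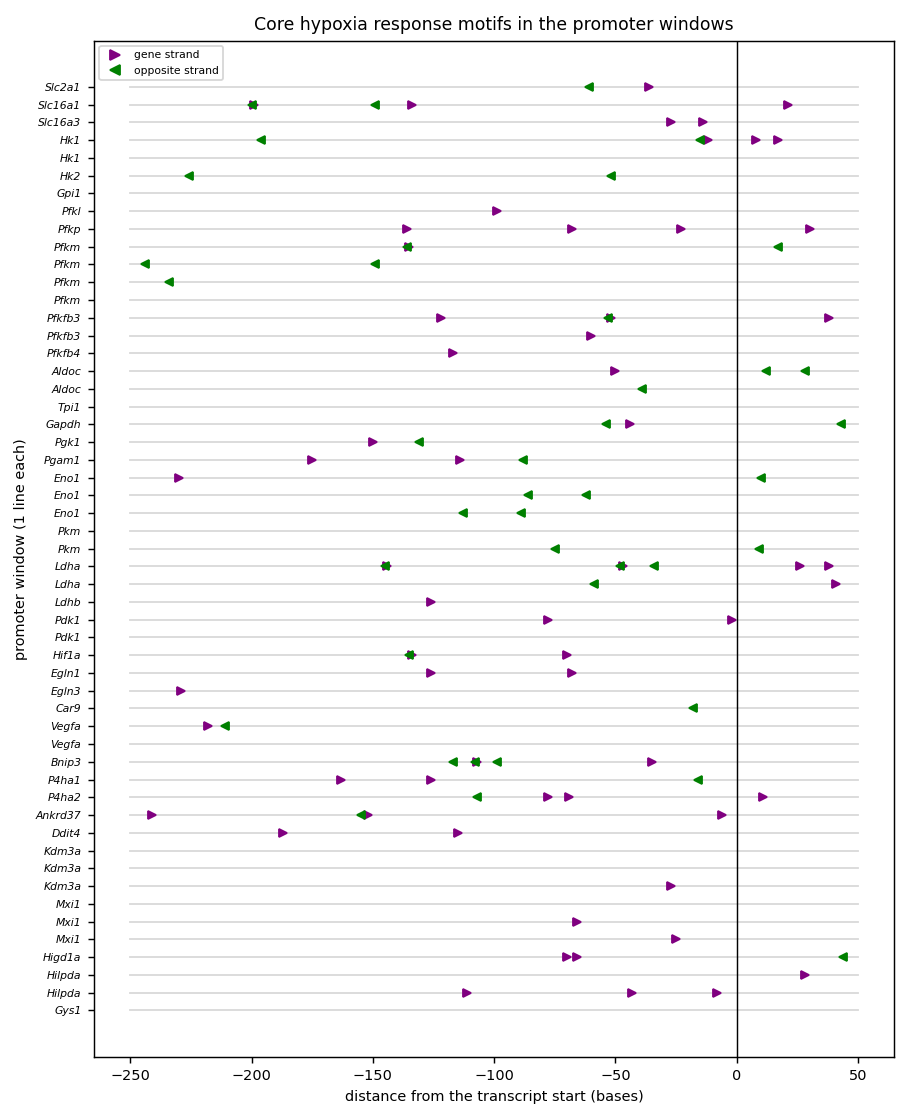
Places of the core motif in the promoter windows of the 36 genes with an entry (1 line per window), with the distance from the transcript start in bases on the horizontal axis and the strand shown by the direction of the triangle. Matches lie in 42 of 53 windows (79.2%), and several genes have windows with and without a match.

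The levels of these genes spanned a wide range, and most of the glycolytic enzymes were among the abundant ones. Per kilobase of annotated exon, log NT cells had a mean of 8933 normalised counts of Pkm, the pyruvate kinase that ends glycolysis, 6060 of Tpi1, triose phosphate isomerase, and 5366 of Ldha, the lactate dehydrogenase subunit that favours lactate. Vegfa, the vascular growth factor, reached 6009 per kilobase. At the low end stood Aldoc, an aldolase, at 9.52 and Slc16a3, a lactate exporter, at 9.99. In the same units Gapdh, usually one of the most abundant messages of a cell, was listed at only 197. Of the stretches of 100 bases in its exons, 20.9% are shared with 84 other annotated genes. Shared stretches were also common in Pgk1 (51.7%), Pgam1 (33.9%), Eno1 (20.4%) and Pkm (12.3%), and the counts of these genes are uncertain to that extent, since reads that map to several places may have been dropped or split.

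Across the 6 groups the full order varied between genes, but the same group was often the highest and another often the lowest. Log DkkMo had the highest mean of the 6 groups for 22 of the 37 genes, while it was the highest group for 18.6% of all genes tested. Stress scrMo had the lowest mean for 20 of them, against 15% of all genes. In 8 of the 22, all 3 log DkkMo libraries lay above every other library: Hk1, Pfkp, Aldoc, Pgam1, Pdk1, Egln1, Bnip3 and P4ha1. In the other 14 they overlapped with libraries of another group. The share of all genes with every log DkkMo library above all others was not counted. Within log phase, the means rose in the order NT, scrMo, DkkMo for 23 genes (12.5% of all genes). Among the stress groups NT was the highest for 25 (40.4% of all genes).

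**Figure D3:**
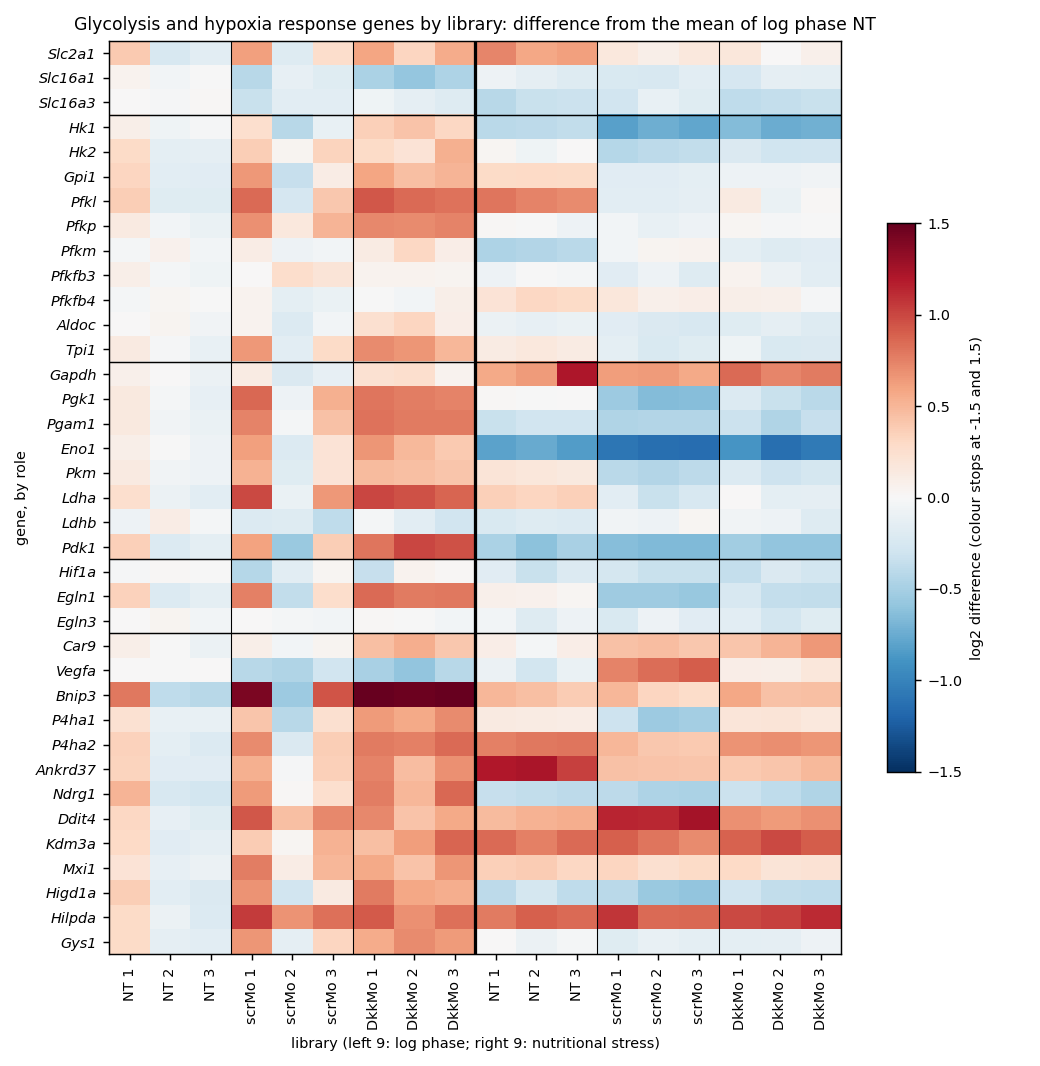
Difference of each gene (rows, by role) from its mean in log NT, on the log2 scale, in each library (columns, with log phase on the left and nutritional stress on the right). Red marks higher and blue lower values, and the colour stops at -1.5 and 1.5. The median of the 37 genes is between 0.46 and 0.59 in the 3 log DkkMo columns and 0.60 in replicate 1 of log scrMo, and the columns of stress scrMo and DkkMo are blue for Eno1, Pgk1, Pdk1 and Egln1 and red for Ddit4, Kdm3a and Hilpda.

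In log phase, DkkMo-treated cells were compared with NT cells to see what the active morpholino changed in growing cultures. Many of these genes were higher with DkkMo, while Vegfa and Slc16a1 were lower by less than 1.5-fold. A gene counted as differentially expressed (DE) where its adjusted p was under 0.05 and it differed by more than 1.5-fold. By this rule 17 of the 37 genes were higher in DkkMo and 0 were lower, whereas 0.827% of all genes tested were DE, 0.513% higher and 0.314% lower. The median log2 fold change of the 37 was 0.55, while that of all genes was 0.01. By role, the higher genes were 3 of 10 upper glycolytic enzymes, 4 of 8 enzymes of the lower steps and of pyruvate use, 1 of 3 HIF regulators, 9 of 13 other HIF targets and 0 of 3 carriers.

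Bnip3, which marks mitochondria for removal, had the largest difference. Its normalised read counts were 4523, 1844 and 1802 in log NT and 7569, 7396 and 8136 in log DkkMo. The groups did not overlap, although replicate 1 of NT stood well above the other two. The log2 fold change was 1.53 (95% interval 0.82 to 2.23, adjusted p = 0.00576, limma). Ldha had 21079, 16496 and 15706 in log NT and 35547, 34324 and 32564 in log DkkMo. All DkkMo libraries were above all NT libraries, and the fold change was 1.92, or 0.94 on the log2 scale (adjusted p = 0.00122).

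Pdk1 codes for a kinase that shuts pyruvate out of the mitochondrial citric acid cycle. Its counts were 1572, 985 and 1029 in log NT and 2257, 2629.8 and 2518 in log DkkMo, again without overlap, with a log2 fold change of 0.92 (adjusted p = 0.00374). Pfkl, the liver form of phosphofructokinase and the committed step of glycolysis, had 4086, 2704 and 2718 against 6179, 5858 and 5682 (0.87, adjusted p = 0.00361). Egln1 codes for the main prolyl hydroxylase that marks HIF for destruction and is itself a HIF target. It had 2694, 1747 and 1829.9 against 3939, 3717 and 3754 (0.81, adjusted p = 0.00566). In both genes the highest NT library was replicate 1 and lay below every DkkMo library.

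The other 12 DE genes differed by between 0.62 and 0.81 on the log2 scale. Among enzymes these were Pfkp, the platelet phosphofructokinase (0.72), Tpi1 (0.62), Pgk1 (0.77) and Pgam1 (0.79), the last named with Pgk1 among the genes that share sequence with copies. Among HIF targets they were P4ha1 (0.64) and P4ha2 (0.79), both collagen prolyl hydroxylases, Ankrd37 (0.63), Ndrg1 (0.71), the histone demethylase Kdm3a (0.65), the mitochondrial protein gene Higd1a (0.64), the lipid droplet gene Hilpda (0.81) and the glycogen synthase gene Gys1 (0.63). In 16 of the 17 the groups did not overlap, as in 24.1% of all genes, and Ndrg1 was the exception: its DkkMo library with 8159.7 counts lay below NT replicate 1 with 8207. Slc2a1, the main glucose carrier, did not pass (0.49), nor did Hif1a itself (-0.09), which codes for the regulated HIF subunit. Vegfa (-0.50, adjusted p = 6.75e-05) and the lactate carrier gene Slc16a1 (-0.50, adjusted p = 4.81e-05) were lower, short of the 1.5-fold rule. The number of DE genes depended on single libraries: it was 21 without NT replicate 1, 12 without NT replicate 2 and 11 without NT replicate 3. Without NT replicate 3 the calls of P4ha1, Ankrd37, Higd1a, Gys1, Tpi1 and Ndrg1 were lost, at log2 fold changes of between 0.53 and 0.58. There Higd1a (adjusted p = 0.116, limma) and Ndrg1 (adjusted p = 0.0568, limma) also missed the p rule. The calls of Higd1a and Ankrd37 were likewise lost without NT replicate 2 or DkkMo replicate 1.

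**Figure D4:**
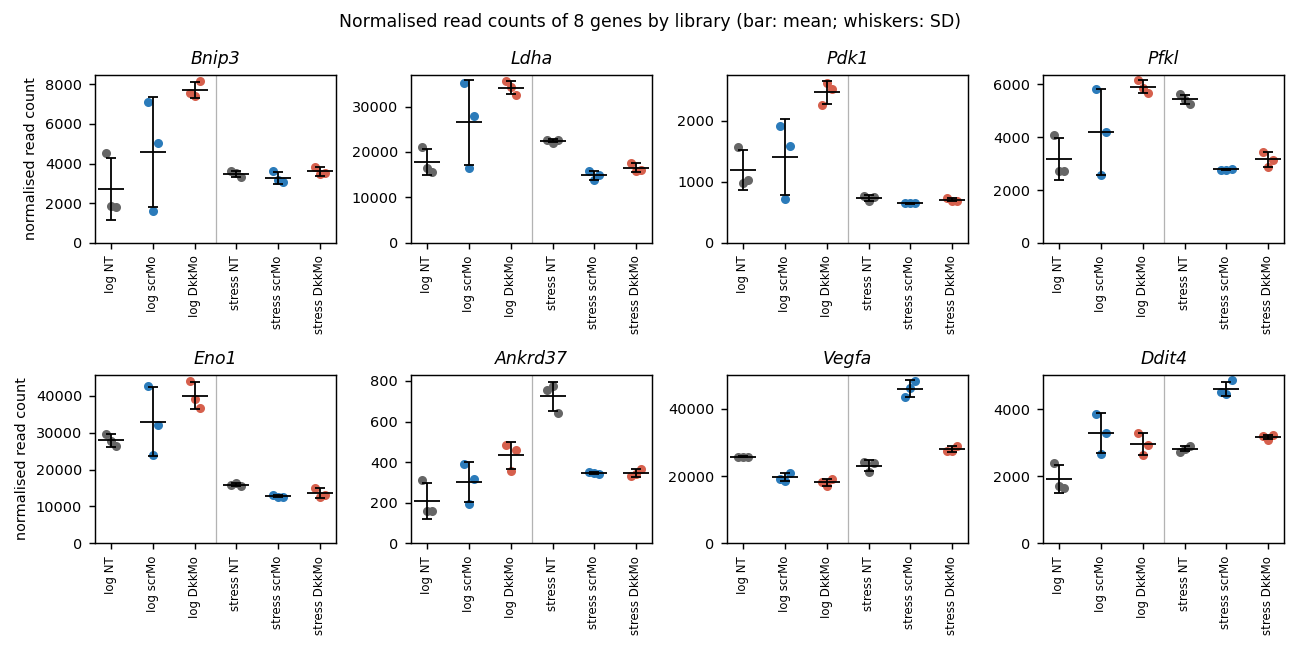
Normalised read counts (vertical axes, linear and starting at 0) of 8 genes in the 18 libraries. Points are libraries, and bars and whiskers are the mean and SD of 3. The log scrMo points are widely spread for Bnip3, Ldha, Pdk1 and Pfkl. For Ldha they span the range from log NT to log DkkMo, while for Bnip3 and Pdk1 all lie below the log DkkMo points. Eno1 lies at or below 16339 in all stress libraries, and Vegfa and Ddit4 are highest in stress scrMo.

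The scrMo control was also compared with NT, which asks what a morpholino does without its target. In log phase only Hilpda and Ddit4 were higher with scrMo and no gene was lower, so that 2 of 37 genes were DE against 2.45% of all genes tested (0.592% higher and 1.85% lower). With voom on the recovered reads 2 were higher and 2 lower. Hilpda had 845, 594 and 532 counts in log NT and 1619, 1182 and 1341 in log scrMo. The groups did not overlap, and the log2 fold change was 0.85 (adjusted p = 1.03e-05). Ddit4 codes for a stress-induced inhibitor of mTORC1. It had 2403, 1709 and 1638 counts in NT and 3872, 2679 and 3286 in scrMo (0.70, adjusted p = 0.000139). Both genes were about as high in log DkkMo, with 1459, 1191 and 1348 counts of Hilpda and 3294, 2631 and 2937 of Ddit4. Both comparisons with NT use the same 3 NT libraries. The median of the 37 genes was 0.20, and here the spread of scrMo mattered most: the number of DE genes was 9 without scrMo replicate 2, 1 (Hilpda) without scrMo replicate 1, where Ddit4 fell short at 0.58, and 4 without NT replicate 1.

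The comparison of DkkMo with scrMo in log phase is the one that isolates the sequence of the morpholino. Most of the genes had higher means with DkkMo, but only Pdk1 and Egln1 were DE, 2 of 37 against 1.97% of all genes (1.66% higher and 0.308% lower). Pdk1 had 1917, 713 and 1592 counts in log scrMo, all below the DkkMo libraries (0.78 on the log2 scale, interval 0.39 to 1.18, adjusted p = 0.00532). Egln1 had 3657, 1526 and 2519.8 in scrMo and its groups did not overlap (0.59, interval 0.22 to 0.96, adjusted p = 0.0201). For Bnip3, with 7086, 1612 and 5046 counts in scrMo, the difference was 0.92 with an interval of 0.22 to 1.63, and the adjusted p was 0.0528. Ldha had 35192, 16478 and 27829 in scrMo, which spans the range from NT to DkkMo (0.43, interval 0.07 to 0.78, adjusted p = 0.0756).

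The median of the 37 genes between DkkMo and scrMo was 0.31, against 0.00 for all genes, and at an adjusted p below 0.05 without the fold rule 14 genes differed (23.5% of all genes did). The count of DE genes depended on single libraries. Without scrMo replicate 2 no gene was DE by limma, with the values of Pdk1 and Egln1 at 0.44 and 0.30, and without scrMo replicate 1 there were 10. Without scrMo replicate 3 there were 4, and without DkkMo replicate 1 there was 1. The call of Egln1 was also lost without DkkMo replicate 1 (0.57) and without DkkMo replicate 2 (0.61, adjusted p = 0.0521 by limma). In scrMo cultures cycling-cell markers (5 of 6 with a row) summed to between 11298 and 13391 counts, below log NT (17443 to 20652) and log DkkMo (17755 to 26349). Their part in these differences was not tested.

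Nutritional stress was compared with log phase within each treatment. In NT cells 4 of 13 other HIF targets rose with stress, as did 1 of 10 upper and 1 of 8 lower enzymes and 1 of 3 carriers. Of the 37 genes, 7 rose and 1 fell, which is 8 of 37 against 18.1% of all genes (8.22% rose and 9.9% fell), and the median was 0.01. In bulk RNA a change in the RNA of each cell cannot be told apart from a change in the share of cells that express a gene. All 5 measured cycling-cell markers fell with stress in NT, and the part of cell division in the changes below was not tested.

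Ankrd37, a small ankyrin-repeat protein gene known as a HIF target, rose most, from 309.9, 159 and 158 counts in log NT to 756, 776 and 644 in stress NT. The groups were far apart, and the log2 fold change was 1.15 (interval 0.89 to 1.42, adjusted p = 1.5e-07). That value is on the compressed scale, and the mean counts differed by 3.47-fold. Hilpda rose to 1296, 1430.0 and 1371 counts (0.84, adjusted p = 9.91e-07). Kdm3a (0.82), P4ha2 (0.78), Pfkl (0.75) and Slc2a1 (0.64) rose as well. The call of Slc2a1 was lost without NT replicate 2 (0.53) or replicate 3 (0.56) of log phase. Gapdh rose from 870.1, 820.3 and 749.7 to 1327, 1410.2 and 2232 (0.81, adjusted p = 6.91e-06), with 1 stress library well above the other two. Eno1, the main enolase, was the one gene that fell, from 29751, 27686 and 26349.8 to 15835, 16339 and 15504 (-0.80, adjusted p = 2.25e-05).

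In scrMo cells 6 of 8 lower glycolytic enzymes fell with stress, and Vegfa rose. Of the 37 genes 2 rose and 11 fell, 13 of 37 against 10.7% of all genes (4.38% rose and 6.28% fell), and the median was -0.24. Vegfa rose from 19230.5, 18683 and 20979 counts to 43407, 46324 and 48405. No other gene of the 37 changed so far upwards, and the log2 fold change was 1.22 (interval 1.08 to 1.36, adjusted p = 2.4e-11). Gapdh rose too (0.69). Eno1 fell from 42797, 24099.9 and 32249.7 to 13023, 12589 and 12513 (-1.32, adjusted p = 6.87e-08). Pgk1, phosphoglycerate kinase, fell from 24596, 12659 and 19542 to 9119, 8463 and 8508 (-1.05, adjusted p = 4.13e-06).

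The other 9 that fell with stress in scrMo were Pgam1 (-0.83), Pdk1 (-0.79), Egln1 (-0.76), Ldha (-0.76), Ndrg1 (-0.75), Higd1a (-0.69), Hk1 (-0.68), Hk2 (-0.64) and Pkm (-0.59). Hk1 and Hk2 are the hexokinases that trap glucose in the cell. This count rested on 1 library of the log phase. Without log scrMo replicate 1 there were 6 DE genes, of which 3 were lower, and the calls of Hk1, Hk2, Pkm, Ldha, Pdk1, Egln1, Ndrg1 and Higd1a were lost at values between -0.58 and -0.42. Without log scrMo replicate 2 there were 19.

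In DkkMo cells, of the 37 genes 2 rose and 16 fell, 18 of 37 against 16.5% of all genes (6.24% rose and 10.2% fell), and the median was -0.40. Among those that fell were 6 of 8 lower enzymes and 5 of 10 upper enzymes. Eno1 fell from 44151, 39233 and 36851 counts to 15031, 12617 and 13216, which is -1.54 on the log2 scale (interval -1.81 to -1.26, adjusted p = 4.87e-09). Pdk1 fell from 2257, 2629.8 and 2518 to 739.6, 695 and 688 (-1.49, adjusted p = 1.25e-06). In both genes the stress libraries lay close together and far below log phase. Pgam1 (-1.16), Egln1 (-1.13), Ndrg1 (-1.10), Pgk1 (-1.09), Hk1 (-1.07), Bnip3 (-1.04) and Ldha (-1.03) all fell by more than 1 on the log2 scale. Vegfa rose from 18317, 16961 and 19181 to 27554, 27484 and 29041 (0.62, adjusted p = 1.08e-07), and Gapdh rose by 0.61.

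Leaving out single libraries kept between 17 and 19 DE genes for stress in DkkMo. The call of Vegfa was lost without log DkkMo replicate 2 (0.57), that of Hk2 without replicate 3 (-0.52), and that of Gapdh without log replicate 3 (0.55) or stress replicate 1 (0.58). Of the 16 genes that fell with stress in DkkMo, 11 also fell in scrMo and 12 were among the 17 that log DkkMo held above log NT, and both of these comparisons use the log DkkMo libraries. Eno1 alone fell in all 3 treatments and Gapdh alone rose in all 3. The Gapdh row was low for this gene (197 counts per kilobase in log NT), and its counts are uncertain, as described above.

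**Figure D5:**
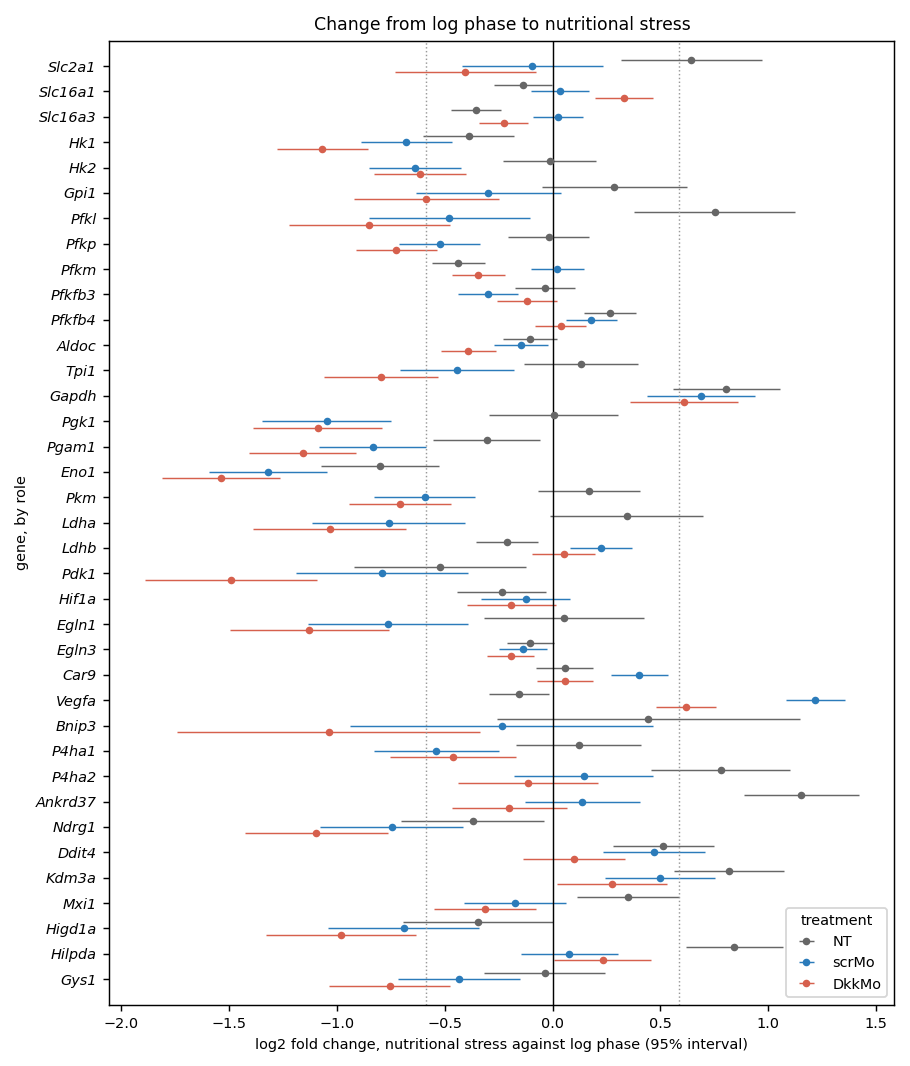
Log2 fold change from log phase to nutritional stress (horizontal axis) of each gene (rows, by role) in NT, scrMo and DkkMo cells, with 95% intervals from limma over 3 libraries per group and dotted lines at 1.5-fold. The median of the 37 genes is 0.01 in NT, -0.24 in scrMo and -0.40 in DkkMo, with Eno1 at -0.80, -1.32 and -1.54, while Vegfa lies at -0.16, 1.22 and 0.62.

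Whether the stress effect itself differed between treatments was tested as an interaction in the same model. Between DkkMo and NT it differed for 23 of the 37 genes (3.92% of all genes, 1.53% with a higher and 2.38% with a lower effect), 22 of them with a lower effect in DkkMo, and the median difference was -0.66. The most negative was Pfkl at -1.60 (interval -2.13 to -1.07), which rose with stress in NT and fell in DkkMo, followed by Bnip3 at -1.48 and Ldha at -1.38. The count was 18 without log NT replicate 2 or replicate 3, and in both cases the calls of Hk2, Bnip3, Ndrg1, Higd1a and Hilpda were lost. The calls of Hk2 and Hilpda were also lost without some other libraries. Among the NT and DkkMo libraries, that of Higd1a was kept only when log NT replicate 1 was left out. Between scrMo and NT the effect differed for 12 genes (10.9% of all genes, 5.55% higher and 5.37% lower), 11 of them lower in scrMo, with Pfkl at -1.23 and Ldha at -1.10. That count was 7 without log scrMo replicate 1 and 21 without log scrMo replicate 2. Without log scrMo replicate 1 the calls of Slc2a1, Hk2, Egln1, P4ha1 and P4ha2 were lost, at values between -0.56 and -0.42. Those of Hk2 and P4ha2 were also lost without log NT replicate 2 or 3, and those of Hk2 and P4ha1 without log scrMo replicate 3. Between DkkMo and scrMo it differed for Vegfa alone, 1 of 37 against 3.7% of all genes (0.869% higher and 2.83% lower). That value was -0.60 and lost its call without any 1 of 5 libraries (-0.56 to -0.58). Vegfa was the only DE gene with a more positive effect in a morpholino treatment than in NT, by 1.37 in scrMo and 0.78 in DkkMo. The 3 interactions share groups in pairs and are not independent.

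Under nutritional stress the treatments were also compared directly. Against NT, scrMo cells had higher Vegfa and Ddit4 and lower levels of 5 genes, 7 of 37 against 4.43% of all genes (1.9% higher and 2.54% lower). With quantile normalisation 2 were higher and 2 lower. Vegfa stood at 24109.9, 21292 and 23966 counts in stress NT, so that scrMo was 1.98-fold higher (0.99 on the log2 scale, adjusted p = 1.63e-09). Ddit4 had 2736, 2828 and 2894 counts in NT and 4518, 4456 and 4858 in scrMo (0.66, adjusted p = 0.000101). Pfkl had 5625, 5404 and 5272 in NT against 2760.0, 2767 and 2814 (-0.90, adjusted p = 0.000417). In none of these did the groups overlap. In this comparison they also did not overlap for genes with small differences, such as Pgls of the pentose phosphate pathway (-0.04). The share of all genes without overlap is not given here.

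Ankrd37 was at 350.1, 345 and 340.2 counts in stress scrMo, below every stress NT library (-0.72, adjusted p = 0.000128). Pgk1 (-0.61), Egln1 (-0.60) and Ldha (-0.59) were lower as well, with Egln1 at 2173, 2155 and 2095 counts in NT and 1337, 1333 and 1291 in scrMo. The call of Ldha was lost without stress NT replicate 1 or 3 (both -0.58) or scrMo replicate 2 (-0.54). The stress scrMo libraries were also those with the high mitochondrial ribosomal RNA.

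Against stress NT, DkkMo cells had lower Pfkl, at 3433, 2888 and 3151 counts (-0.73, adjusted p = 0.00281), and lower Ankrd37, at 332, 340.1 and 367 (-0.72, adjusted p = 0.000182). These were 2 of 37 genes against 2.66% of all genes (1.12% higher and 1.54% lower), and none was higher. Both genes were thus lower than NT under each morpholino, in comparisons that share the NT libraries. Between DkkMo and scrMo under stress 2 genes were DE, against 1% of all genes (0.513% higher and 0.489% lower). P4ha1 was higher in DkkMo, with 7025, 7051 and 6909 counts against 4913, 4112 and 4221 (0.63, adjusted p = 0.00272). Its level in stress NT, 6784, 6699 and 6674, was close to that in DkkMo. Vegfa was lower in DkkMo (-0.71, interval -0.85 to -0.57, adjusted p = 3.68e-07), between its levels in NT and scrMo. The Bnip3 libraries, which differed so widely in log phase, lay between 3068 and 3843 in all 9 stress libraries.

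Of the phosphofructokinases, Pfkl and Pfkp were DE in some comparison and Pfkm, the muscle form, in none. Per kilobase, Pfkl reached 0.60 of the level of Pfkm in stress scrMo and 1.67 times it in stress NT. Hk1 was, per kilobase, at between 0.44 and 0.63 of the level of Hk2 in all groups. Such ratios depend on the length of all exons annotated for each gene, which was 8.53 kb for Hk1 and 5.97 kb for Hk2. Ldha exceeded Ldhb, the subunit that favours the return of lactate to pyruvate, by 44.2-fold in log NT and 108-fold in log DkkMo per kilobase, while the counts of Ldhb lay between 103 and 219 throughout. Egln1 exceeded Egln3, which codes for another HIF prolyl hydroxylase, by between 8.06-fold and 18.3-fold, and Egln3 was DE nowhere. P4ha1 was above P4ha2 by between 2.11-fold and 4.11-fold. For the carriers Slc2a1 and Slc2a3 and the enolases Eno1 and Eno2 no pair could be formed, as Slc2a3 and Eno2 had no row.

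Of the 37 genes, 10 were DE in none of the 12 comparisons: Slc16a1, Slc16a3, Pfkm, Pfkfb3, Pfkfb4, Aldoc, Ldhb, Hif1a, Egln3 and Car9. Hif1a varied by 1.25-fold between the highest and the lowest group mean, which lay between 4265 and 5347 counts, the narrowest range of the 37. Slc16a1, the lactate carrier of most cells, was lower in all log DkkMo libraries (2101 to 2308 counts) than in every other library. Pfkfb3 and Pfkfb4, which make and remove the activator of phosphofructokinase, stayed between 225 and 444 counts. Car9, a carbonic anhydrase that is a classic HIF target, had few reads, with 75.1 ± 13.8 counts (SD, n = 3) in log NT and 168 ± 16.4 in log DkkMo. Its log2 difference on the deposited scale was 0.47, under the fold rule, although the mean counts differed by more than 1.5-fold. Slc16a3 had between 14 and 55.6 counts. Gpi1, the glucose phosphate isomerase, and Mxi1, a repressor of the Myc network, passed only in the interaction of DkkMo with NT (-0.87 and -0.66).

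Between log DkkMo and log NT, where 0.827% of all genes were DE, 3 of 24 other HIF targets were DE and higher: Hmox1, heme oxygenase (1.11), Fam162a (0.93) and Jmjd6 (0.61). Hmox1 was also higher in log scrMo than in log NT (1.34), and its difference between DkkMo and scrMo was -0.23 (adjusted p = 0.336, limma). The glycogen gene Pgm1 (0.71) and Pdk4, another pyruvate dehydrogenase kinase (0.69), were higher in log DkkMo than in log NT. None of the 12 genes of the HIF machinery, the 16 of the citric acid cycle or the 7 of the pentose phosphate pathway was DE by limma, and at the share of all genes lists of this size would hold none or few. Txnip, which restrains glucose uptake and answers to sugar through MondoA, was higher by 1.91 in log DkkMo than in log NT and by 2.78 than in log scrMo, and Arrdc4 had no row.

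Under stress the other HIF targets split as well. Angptl4 fell in all 3 treatments (-1.54 in NT, -1.55 in scrMo and -1.78 in DkkMo), as did Fam162a (-0.70, -1.32 and -1.87), whereas Hmox1 rose (2.19, 1.19 and 1.81). Hif1an, which codes for a further oxygen-dependent hydroxylase of HIF, rose in all 3 (0.98, 0.61 and 0.97). The muscle enolase gene Eno3 (-1.98, -1.68 and -2.06), the pentose phosphate entry enzyme G6pdx (-1.61, -1.43 and -1.79) and Bsg, the partner protein of lactate carriers (-0.83, -0.90 and -1.19), fell in all 3. Of the 16 citric acid cycle genes 2, 2 and 4 fell in NT, scrMo and DkkMo, where 9.9%, 6.28% and 10.2% of all genes fell, so that the first 2 counts are near the background. Suclg1 was among them each time (-0.75, -0.87 and -0.97). These lists were read as descriptions, and no test compared them with other genes.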

How the data were processed

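Bulk RNA of cultured cells was sequenced in 18 libraries, in 6 groups of 3. Tumour samples of the same series were not analysed here. The authors used HISAT2, SAMtools, Subread featureCounts, StringTie and DESeq2, with the GRCm38 genome. How reads that map to several places or to either strand were counted is not given in the sources used here. The authors deposited variance-stabilised values on the log2 scale, where 7.20 stands for no reads. Of 16576 rows, the last 14 had within-group spreads over 6 and were set aside. Inverting the transformation gave whole reads for 100% of values (tolerance 0.05), and reads divided by the library's size factor are the normalised read counts. Depth was 25.9 to 44.8 M reads per library.

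Differences were tested with limma 3.58.1 on the deposited values (R 4.3.3), with 1 mean per group, all 18 libraries in one model, a variance trend and Benjamini-Hochberg adjustment over 16562 genes, in 12 comparisons of which 3 were interactions. The test was tried on simulated data. Replicates correlated at a Spearman rho of 0.992 to 0.998, and no 2 libraries matched within sampling noise. Genes are given in full where they were DE, with each library's values for the largest rises and falls per comparison, isozymes are described together, and the largest changes of the other lists may be named. Promoters, and genes said to be chosen after their values were seen, fall outside that rule. The genes and lists were chosen with earlier results of these data known. The alternatives were filters, scalings, models, thresholds and each library left out, and the closing section gives their effect. Python 3.11.15, NumPy 2.4.6, pandas 2.3.3, SciPy 1.17.1 and matplotlib 3.10.9 were used. The labels give 5 µM morpholino, and the study's text is not uniform on the dose and the time of collection.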

Additional observations from a re-analysis of the deposited data

Results flagged for a closer look

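For 36 pairs of a gene and an interaction, the effect of nutritional stress differed between treatments by the test of the difference itself (limma, adjusted p below 0.05 and over 1.5-fold). Values are differences between stress effects on the log2 scale, and the interactions share groups. They rest on the same libraries as the treatment differences in log phase and under stress, and are not separate from them.

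Between DkkMo and NT, the effect on upper glycolysis and glucose uptake was lower in DkkMo for Slc2a1 (-1.05), Hk1 (-0.68), Hk2 (-0.60), Gpi1 (-0.87), Pfkl (-1.60), Pfkp (-0.71) and Tpi1 (-0.93). Among the lower enzymes it was lower for Pgk1 (-1.09), Pgam1 (-0.85), Eno1 (-0.74), Pkm (-0.88), Ldha (-1.38) and Pdk1 (-0.97). Among HIF regulators and targets it was lower for Egln1 (-1.18), Bnip3 (-1.48), P4ha2 (-0.89), Ankrd37 (-1.35), Ndrg1 (-0.73), Mxi1 (-0.66), Higd1a (-0.63), Hilpda (-0.61) and Gys1 (-0.72), and it was higher for Vegfa (0.78). Bnip3 lost its call without log NT replicate 2 (-1.29) or replicate 3 (-1.27). Hk2, Ndrg1, Higd1a and Hilpda lost theirs without either of those libraries too. Hk2 also lost its call without log DkkMo replicate 3 or stress NT replicate 1. Hilpda also lost its call without log DkkMo replicate 1, stress NT replicate 2 or stress DkkMo replicate 1. Higd1a had an adjusted p of 0.0496 by limma. Among the NT and DkkMo libraries, its call was kept only when log NT replicate 1 was left out.

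Between scrMo and NT, the effect was lower in scrMo for Slc2a1 (-0.74), Hk2 (-0.62), Pfkl (-1.23), Pgk1 (-1.05), Pkm (-0.76), Ldha (-1.10), Egln1 (-0.82), P4ha1 (-0.66), P4ha2 (-0.64), Ankrd37 (-1.02) and Hilpda (-0.76), and higher for Vegfa (1.37). Without log scrMo replicate 1 the calls of Slc2a1 (-0.54), Hk2 (-0.56), Egln1 (-0.55), P4ha1 (-0.49) and P4ha2 (-0.42) were lost, and 7 of 37 genes were DE. Between DkkMo and scrMo it differed for Vegfa (-0.60), a call lost without any 1 of 5 libraries.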

How the results depend on the processing

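Counts are of DE genes among the 37. With no fold threshold they were 20, 26 and 27 for stress in NT, scrMo and DkkMo, 14 and 5 for DkkMo against scrMo in log phase and under stress, 11 and 19 for scrMo against NT, 28 and 10 for DkkMo against NT, and 6, 23 and 28 for the interactions of DkkMo with scrMo, scrMo with NT and DkkMo with NT. With a 2-fold threshold they were, in the same order, 1, 3, 9, 0, 0, 0, 0, 1, 0, 0, 5 and 7. At these changed thresholds the share of all genes is given only for DkkMo against scrMo in log phase (23.5% with no fold threshold). The other counts at these thresholds therefore cannot be set against all genes. For DkkMo against scrMo in log phase the count was 0 with only those groups in the model, 1 with median centring, 4 with log2 of normalised counts plus 1, 4 with voom and 14 with array weights. For its interaction it was 0 with centring, 3 with log2 of counts plus 1, 3 with voom and 10 with array weights. Array weights gave 6 for stress in scrMo and 7 for the interaction of scrMo with NT, where quantile normalisation also gave 7. Against NT, scrMo had 4 in log phase with voom (2 higher and 2 lower), and under stress 4 with quantile normalisation and 11 with log2 of counts plus 1. DkkMo against NT under stress had 1 among genes above the median. The causes were not tested, and no called gene reversed.

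Leaving out 1 library gave 8 to 10, 6 to 19 and 17 to 19 for stress in NT, scrMo and DkkMo, 0 to 10 and 2 to 2 for DkkMo against scrMo in log phase and under stress, 1 to 9 and 6 to 9 for scrMo against NT, 11 to 21 and 2 to 3 for DkkMo against NT, and 0 to 4, 7 to 21 and 18 to 25 for the interactions in the order above.

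The pairing of libraries by replicate number is not given by the labels and was not met by the data: 0 of 10 pairs of groups had every same-number correlation of deviations over 0.1, and the lowest was -0.0773. Some pairs of groups went the other way, as a hint from the data only. Log scrMo with log DkkMo had a mean of 0.418 for the same number (-0.0602 to 0.669) and -0.195 for other numbers, log scrMo with stress DkkMo 0.193 and -0.095, and log DkkMo with stress DkkMo 0.181 and -0.0897. With the replicate number as a block the counts were 13 and 18 for stress in scrMo and DkkMo, 3 and 2 for DkkMo against scrMo, 2 for scrMo against NT and 17 for DkkMo against NT in log phase, and 1 for the interaction of DkkMo with scrMo. No paired analysis was possible for comparisons with stress NT because 2 of its libraries carry the same number.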
